A study of Rattus norvegicus with 10 samples.

Results

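Mbp, Mag, Cnp and Cldn11 encode proteins of central nervous system myelin, and their levels were followed across 10 libraries of primary rat oligodendrocytes (OLs) and oligodendrocyte progenitor cells (OPCs). They were chosen by symbol as major genes of compact and adaxonal myelin, by a rule that uses no measured value. Earlier results of these data were known when the 4 genes were chosen. All 4 were found, each under a single gene identifier, among 23487 genes counted. The groups, with 2 libraries each, test whether raising miR-145 in OLs or blocking it in OPCs alters the cells' RNA. OLs were lysed 5 days after transfection, in differentiation medium with triiodothyronine, ciliary neurotrophic factor and N-acetyl L-cysteine, and had received a miR-145-5p mimic (OL miR-145), miR-145-5p and miR-219 mimics together (OL miR-145+miR-219) or a scrambled mimic (OL miR-ctl). OPCs were kept in FGF2 and PDGFAA and lysed 24 h after transfection with a miR-145-5p inhibitor (OPC anti-miR-145) or a scrambled inhibitor (OPC anti-miR-ctl). Each oligonucleotide was used at 30 nM, and whether this held for each mimic or for their sum in the combined group is not given in the sources used here. All cells came from cortices of Sprague-Dawley pups at postnatal day 1 to 3, were shaken off mixed glial cultures and were enriched by differential adhesion, so other glia could remain. One label of the miR-145 libraries also names miR-219, whereas their titles name miR-145 alone, and they were treated as miR-145.

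OLs wrap axons in layers of membrane that become compacted as cytoplasm is squeezed out. Myelin basic protein, from Mbp, sits on the cytoplasmic face of the membrane and holds apposed layers together, and its mRNA is carried to the myelin sheath and translated there. Cnp encodes 2′,3′-cyclic nucleotide 3′-phosphodiesterase, an enzyme of non-compact myelin that binds the actin skeleton and keeps cytoplasmic channels open. Myelin-associated glycoprotein, from Mag, is a sialic acid-binding adhesion protein of the innermost, adaxonal membrane that faces the axon. Cldn11 encodes claudin 11, which forms the tight junctions that run along the myelin sheath. miR-145 and miR-219 are microRNAs, short RNAs that lower the output of mRNAs paired with their seed, and miR-219 is known for promoting OL differentiation. Counts merge all transcripts of a gene, so the myelin and the upstream golli transcripts of Mbp were not separated.

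The sequences of the microRNAs that were raised or blocked are shown first, as RefSeq gives them for the rat genome build GRCr8, because their seeds (bases 2 to 8, in capitals) set which mRNAs they pair with. According to the labels the miR-145-5p mimic has the mature sequence. The seeds differ, and whether transcripts of the 4 genes hold matches to them was not analysed here.
rno-miR-145-5p (chr18:57370033-57370055, minus strand): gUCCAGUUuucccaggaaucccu
rno-miR-219a-5p (chr3:33516561-33516581, minus strand): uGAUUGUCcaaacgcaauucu

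Counts assigned to genes summed to between 33505706 and 42684206 per library, and levels are given as CPM, counts scaled to a common library size, after TMM scaling over the 10 libraries. The summed level of 6 OPC markers was 7196 to 8442 CPM in OPC libraries and 1358 to 2070 CPM in OL libraries. The largest part of the sum in OPC libraries was the cyclin gene Ccnd1, at 3276 to 3862 CPM. Markers of other cell types were detected, and which cells carried them was not tested. The 8 astrocyte markers summed to 5404 to 13163 CPM in OL libraries and 403 to 674 CPM in OPC libraries, and the 12 microglia markers to 418 to 1114 CPM and 948 to 1192 CPM. Most of the astrocyte sum in OL libraries was Gfap, at 4179 to 9708 CPM. In these bulk libraries fewer cells of a type and less RNA per cell cannot be told apart.

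All 4 genes were far higher in OLs than in OPCs, and within OLs no group stood apart from both others for any of them. Mbp was at 8096 and 15517 CPM in the 2 OL miR-145+miR-219 libraries, at 6236 and 10665 CPM in OL miR-145 and at 6224 and 13143 CPM in OL miR-ctl. In OPCs it was at 244.4 and 230.8 CPM with anti-miR-145 and at 251.4 and 279.5 CPM with anti-miR-ctl. The OL groups overlapped, with the library numbered 2 the higher in each, and the OPC libraries lay close together. Mbp took 0.594% to 1.51% of all counts in OL libraries and 0.0238% to 0.0299% in OPC libraries.

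Mag was at 771.5 and 1408 CPM in OL miR-145+miR-219, at 627.5 and 955.9 CPM in OL miR-145 and at 623.2 and 1240 CPM in OL miR-ctl. OPCs held 12.02 and 11.78 CPM with anti-miR-145 and 9.22 and 9.21 CPM with anti-miR-ctl. The order of the group means, from OL miR-145+miR-219 over OL miR-ctl to OL miR-145, was the same as for Mbp, and neighbours in it overlapped. In OPCs Mag was the higher with anti-miR-145, where Mbp was the lower.

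Cnp was well detected in OPCs, at 623.1 and 620.1 CPM with anti-miR-145 and at 697.1 and 714.1 CPM with anti-miR-ctl. In OLs it was at 2681 and 3910 CPM in miR-145+miR-219, at 2498 and 3087 CPM in miR-145 and at 3180 and 4041 CPM in miR-ctl. Both OL miR-145 libraries lay below both OL miR-ctl libraries, and the combined group overlapped with each. Of the 4 genes Cnp spread least within OLs, with the highest library at 1.62 times the lowest, against 2.26 to 2.49 times for the others.

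Cldn11 was at 730.8 and 1330 CPM in OL miR-145+miR-219, at 609.5 and 945.9 CPM in OL miR-145 and at 731.0 and 1431 CPM in OL miR-ctl. In OPCs it was at 16.8 and 17.1 CPM with anti-miR-145 and at 7.32 and 8.06 CPM with anti-miR-ctl, so every anti-miR-145 library lay above every control. As for Cnp, the OL mean was highest in miR-ctl and lowest in miR-145, with overlap between neighbours in that order.

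**Figure D1:**
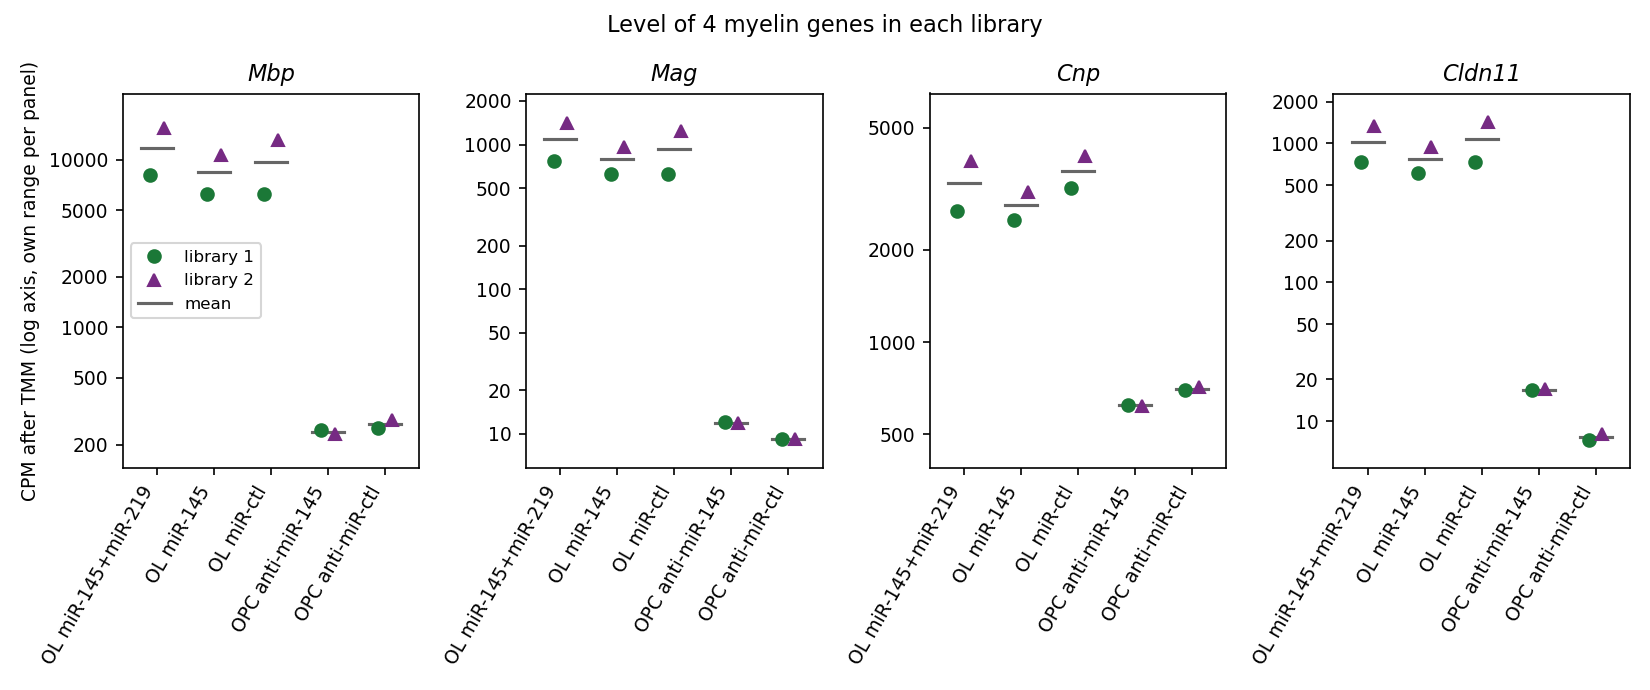
Level of Mbp, Mag, Cnp and Cldn11 in each library, in CPM after TMM on a log axis with its own range per gene. Circles and triangles are the libraries numbered 1 and 2, and bars are the means of 2. OL libraries lie above OPC libraries for every gene, and within each OL group the triangle lies above the circle.

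The control OLs and control OPCs were compared to place the genes along differentiation. All 4 were higher in OLs in edgeR's quasi-likelihood test, adjusted by Benjamini-Hochberg over every gene tested, while 28.8% of the 15721 genes tested were called higher. The groups did not overlap for any of the 4, and 41.2% of genes were higher without overlap. Cldn11, the tight junction gene, had the largest change, with a log2 fold change of 7.13 ± 0.41 (standard error; adjusted p of 0.000165), a 140-fold difference with a 95% confidence interval of 67.7 to 291. Mag followed with 6.66 ± 0.41 (adjusted p of 0.000193). Mbp changed by 5.18 ± 0.41 (adjusted p of 0.000435), a 36.4-fold difference with an interval of 17.5 to 75.4. Cnp rose least, by 2.35 ± 0.14 (adjusted p of 0.000185), or 5.10-fold with an interval of 3.97 to 6.55, and its interval did not reach that of any of the other 3. The lowest of the 6 OL libraries exceeded the highest of the 4 OPC libraries by 51.9 times for Mag, 35.8 times for Cldn11, 22.3 times for Mbp and 3.50 times for Cnp. The stage of the cells, the medium, the time since transfection and the control oligonucleotide all differed between these groups and cannot be told apart. Scaling by library totals in place of TMM moved the median log2 fold change of all genes from 0.01 to -0.12, which is small beside these values.

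Other genes of myelin were read from the same fit. The share of all genes called lower in it is not given here, so counts called lower are not set against such a share. Of 21 other myelin membrane proteins, 11 were called higher and 2 lower in OLs, and their median log2 fold change was 0.94 beside 0.01 for all genes. Nfasc, whose glial form joins myelin to the axon beside the node of Ranvier, was at 4451 and 4358 CPM in OLs and at 175 and 171 CPM in OPCs, a log2 fold change of 4.67 (adjusted p of 3.07e-05). Cd9, a tetraspanin, rose by 3.52 (adjusted p of 4e-05). Cd82, another tetraspanin, and Omg, a glycoprotein of OLs and neurons, fell by 1.64 and 0.58 on the log2 scale (adjusted p of 0.000223 and 0.00577).

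Among 10 genes of myelin lipid synthesis 7 were called higher and 1 lower in control OLs, with a median of 0.89. Ugt8, which makes galactosylceramide, was at 703 and 763 CPM against 97.7 and 94.6 CPM in OPCs, and Fa2h, the fatty acid 2-hydroxylase of that lipid, at 100 and 63.9 CPM against 2.67 and 2.93 CPM. Their log2 fold changes were 2.93 and 4.87 (adjusted p of 4.65e-05 and 0.000147). Smpd3, a sphingomyelinase, fell by 1.63 (adjusted p of 0.00123).

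Activators of myelin gene transcription were called higher for 11 of 14 and lower for 2, with a median of 1.46. Myrf, the transcription factor that drives myelin genes, was at 575 and 678 CPM in OLs and at 87.8 and 75.2 CPM in OPCs, a log2 fold change of 2.94 (adjusted p of 8.58e-05). Tcf7l2, a Wnt effector of differentiating OLs, rose by 2.07 (adjusted p of 6.97e-05). The lineage factors Olig1 and Olig2, present at both stages, fell by 1.33 and 0.38 on the log2 scale (adjusted p of 0.00019 and 0.0262).

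Of 9 inhibitors of myelin gene transcription 4 were called higher and 2 lower in control OLs, with a median of -0.24. The BMP ligand gene Bmp4 rose by 5.77 (adjusted p of 8.14e-05), from 5.31 and 5.45 CPM to 354 and 234 CPM, and Id4, an inhibitor of helix-loop-helix factors, by 2.45 (adjusted p of 0.000134). The early response gene Egr1 fell by 4.16 (adjusted p of 7.92e-05) and Sox5 by 1.38 (adjusted p of 0.0041). The inhibitors so moved in both directions.

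The 9 genes for transport and local translation of Mbp RNA had 2 called higher and 6 lower, with a median of -0.33. The kinase gene Fyn, whose product relieves the block on Mbp translation, rose by 1.47 (adjusted p of 0.000265), and the kinesin gene Kif1b by 0.83 (adjusted p of 0.000903). Syncrip, which encodes an RNA-binding protein, and the microtubule protein gene Ckap5 fell by 0.72 and 0.67 on the log2 scale (adjusted p of 0.0012 and 0.00134). Of 12 partners of MAG, CNP and claudin 11, 8 were called higher and 1 lower, with a median of 0.57. S100b, a calcium-binding protein of glia, rose by 1.96 (adjusted p of 7.04e-05) and the septin gene Sept7 by 0.99 (adjusted p of 0.000748), while Anln, a protein of septin filaments and of cell division, fell by 2.97 (adjusted p of 0.000177).

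The 7 astrocyte markers that were called of 8 were higher in control OLs. Gfap, the astrocyte filament gene, was at 4799 and 4179 CPM there and at 8.23 and 7.81 CPM in control OPCs. All 5 markers of dividing cells and all 6 OPC markers were called lower in OLs. For Schwann cells, the myelinating glia of peripheral nerve, which also use Mbp, Mag and Cnp, the 5 markers found summed to 67.4 to 176 CPM in OL libraries and to 17.5 to 29.0 CPM in OPC libraries. Their part in the differences was not tested.

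The inhibitor of miR-145 was compared with its control in OPCs to ask what blocking the microRNA changes before differentiation. Cldn11 and Mag were called higher with anti-miR-145, and Mbp and Cnp were lower in both libraries without passing the test. Cldn11 rose by 1.15 ± 0.11 on the log2 scale (standard error), a 2.22-fold difference with a 95% confidence interval of 1.85 to 2.67 (edgeR adjusted p of 0.000444). Mag rose by 0.38 ± 0.11, or 1.31-fold with an interval of 1.10 to 1.56 (edgeR adjusted p of 0.0362). Mbp differed by -0.15 ± 0.09 (edgeR adjusted p of 0.290), with an interval of -0.37 to 0.08. Cnp differed by -0.17 ± 0.08 (edgeR adjusted p of 0.161), with an interval of -0.36 to 0.02. The intervals of Mbp and Cnp exclude a rise of the size seen for Cldn11.

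Of the 15496 genes tested in OPCs, 12.1% were called higher and 16.0% lower. With scaling by library totals the share of higher among called genes moved from 43.1% to 32.6%. Groups failed to overlap for all 4 myelin genes, and for 67.8% of all genes in either direction. Counts behind the low levels were 484 and 519 for Mag with anti-miR-145 against 394 and 336, and 676 and 751 for Cldn11 against 313 and 294. At its highest in OPCs Cldn11 was still 35.8 times below its lowest OL level. The call for Mag was lost with DESeq2 (adjusted p of 0.0899), with library totals (0.0671) and with all 5 groups in the edgeR fit (0.536). It was also lost with the replicate number as a block and without either control library. That for Cldn11 was lost only with all 5 groups in the fit (adjusted p of 0.0815).

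**Figure D2:**
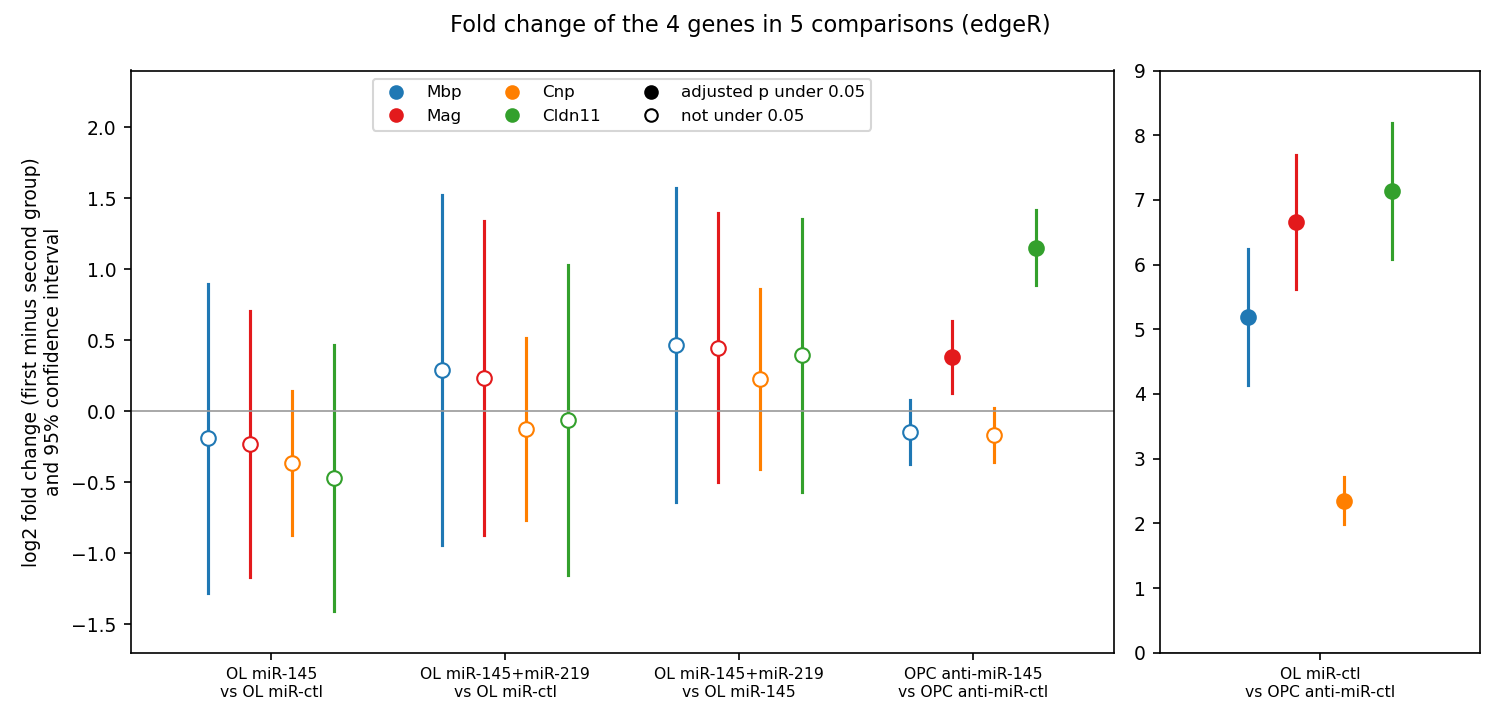
Log2 fold change of each gene in 5 comparisons, with the first group named minus the second. Lines are 95% confidence intervals from edgeR, and filled points have an adjusted p under 0.05. Filled points occur only for Mag and Cldn11 in OPCs given anti-miR-145, and for all 4 genes in control OLs against control OPCs, which has its own axis.

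Related genes in OPCs moved in both directions with anti-miR-145. Of 21 other myelin membrane proteins 3 were called higher and 4 lower, with a median log2 fold change of -0.27 beside 0.00 for all genes. Cd9 was at 148 and 147 CPM against 92.9 and 100 CPM and rose by 0.63 (edgeR adjusted p of 0.00208). Jam3, a junctional adhesion molecule, rose by 0.48 (adjusted p of 0.00489). Plekhb1 fell by 1.17, to 12.2 and 13.4 CPM, and the receptor gene Gpr37 fell by 0.99 on the log2 scale (adjusted p of 0.00028 and 0.000867). Among 10 lipid synthesis genes 2 were called higher and 1 lower, with a median of -0.20. Smpd3 and the desaturase gene Scd rose by 0.48 and 0.40 (adjusted p of 0.0055 and 0.0137), and Degs1, the dihydroceramide desaturase, fell by 0.26 (adjusted p of 0.0494).

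Activators of myelin transcription split, with 5 of 14 called higher and 3 lower and a median of 0.03. Sox8, a SOX factor of the OL lineage, was at 177 and 186 CPM against 86.4 and 79.4 CPM and rose by 1.15 (edgeR adjusted p of 0.000149). Nkx2-2 rose by 0.86 (adjusted p of 0.000853). Myrf was at 33.6 and 34.6 CPM against 87.8 and 75.2 CPM and fell by 1.24 on the log2 scale (adjusted p of 0.000203), while Mag and Cldn11 rose in the same libraries. Zeb2 fell by 0.65 (adjusted p of 0.00681).

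Inhibitors were called lower for 5 of 9 and higher for 1, with a median of -0.76. Egr1 fell by 0.82 on the log2 scale (edgeR adjusted p of 0.0025). Hes5, a Notch effector, fell by 1.76 (adjusted p of 0.00678) from levels of 1.47 and 1.37 CPM, and Bmp4 rose by 0.69 (adjusted p of 0.00808). Fyn was the 1 gene called higher of 9 for transport and translation of Mbp RNA, at 735 and 750 CPM against 473 and 474 CPM (log2 fold change 0.66, adjusted p of 0.0011). The 1 called lower was Ckap5, at -0.60 (adjusted p of 0.0037), and the median of these 9 was -0.09.

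Partners of MAG, CNP and claudin 11 had 3 of 12 called higher and 3 lower, with a median of -0.09. Lingo1, part of the receptor complex that binds MAG, rose by 0.48 (edgeR adjusted p of 0.00675), and B4galnt1, which makes the gangliosides that MAG binds, by 0.72 (adjusted p of 0.0165). Anln fell by 1.40 and S100b by 0.85 on the log2 scale (adjusted p of 0.000274 and 0.000438).

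All 5 markers of dividing cells were called lower in the same comparison, with a median of -1.49 and a summed level of 478 and 565 CPM against 1385 and 1468 CPM. The 6 markers of premyelinating OLs summed to 1473 and 1551 CPM with anti-miR-145 and to 1152 and 1171 CPM in the control. Only 1 of these 6 was called, Fyn, which was higher at 735 and 750 CPM against 473 and 474 CPM. Estimates were positive for 4 of the 6 and negative for Itpr2 and Tcf7l2. The part of dividing and premyelinating cells in the rise of Cldn11 and Mag was not tested. Of 8 astrocyte markers 4 were called lower and 1 higher, of 12 microglia markers 7 were called higher and 5 lower, and of 5 Schwann cell markers 1 was called lower. The Schwann cell markers summed to 21.0 and 17.5 CPM with anti-miR-145, and the 4 fibroblast and mural cell markers found to at most 2.16 CPM in any OPC library.

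**Figure D3:**
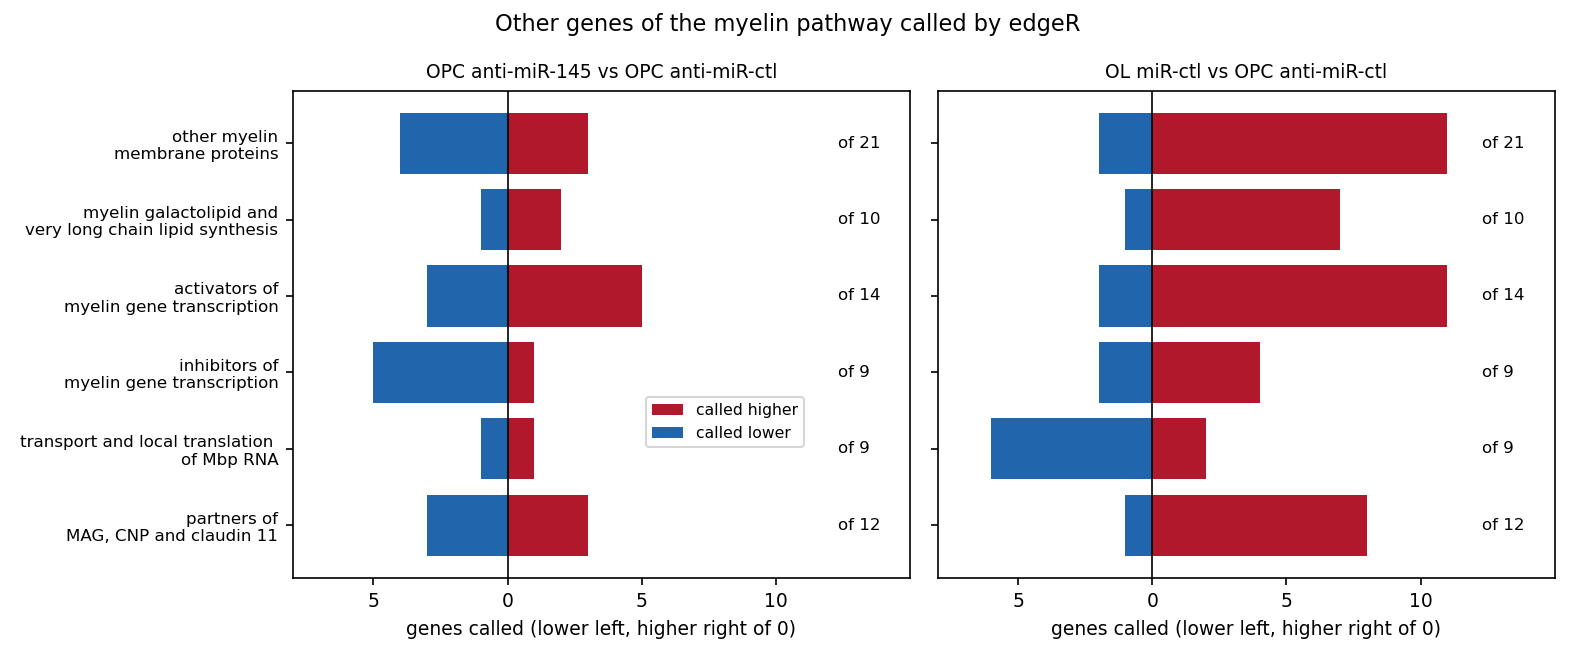
Number of genes of 6 lists of the myelin pathway called higher (right of 0) or lower (left of 0) by edgeR at an adjusted p under 0.05, with the number tested beside each bar. In OPCs given anti-miR-145 every list holds calls in both directions, while between control OLs and control OPCs most lists lean to higher.

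The mimic of miR-145 was compared with its control in OLs to ask whether raising the microRNA alters differentiation. By edgeR's quasi-likelihood test none of the 4 genes was called, as for all 15461 genes tested, where the share called was 0% and 2067 fell below an unadjusted p of 0.05. With DESeq2 649 genes passed, and none of the 4 was among them. With the replicate number as a block, edgeR called Cnp and Cldn11 lower, though no source says that a number marks the same animal. In the fit without a block all 4 had a negative estimate. Cldn11 stood at -0.47 ± 0.37 on the log2 scale (standard error; adjusted p of 0.619) with a 95% confidence interval of -1.40 to 0.47. Cnp stood at -0.36 ± 0.20 (adjusted p of 0.480) with an interval of -0.87 to 0.14. It was the only member whose groups did not overlap, and 24.4% of all genes lay lower without overlap. For Mag and Mbp the estimates were -0.23 ± 0.37 and -0.19 ± 0.43 (adjusted p of 0.823 and 0.880). Leaving out 1 library turned the sign for Mbp, Mag and Cldn11, with values from -0.64 to 0.44, -0.64 to 0.35 and -0.87 to 0.09, whereas Cnp ranged from -0.53 to -0.19.

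In the 6 other lists edgeR called 0 genes, while DESeq2 called 3 activators of myelin transcription, all lower, and 2 partners, 1 higher and 1 lower. Of 14 activators of myelin transcription 12 had a negative estimate, 8 of them without overlap, with a median of -0.30 beside -0.01 for all genes. Sox10, the SOX factor needed for myelin gene expression, was at 434 and 454 CPM against 670 and 669 CPM, a log2 fold change of -0.59 (adjusted p of 0.167), and Tcf7l2 had -0.56 (adjusted p of 0.164). Of the 21 other myelin membrane proteins 15 had a positive estimate, with a median of 0.17. That median rested on single libraries, at -0.02 without OL miR-145 replicate 2, 0.52 without OL miR-145 replicate 1, 0.66 without OL miR-ctl replicate 2 and 0.12 without OL miR-ctl replicate 1. For the activators it was -0.09 without OL miR-145 replicate 1 and -0.50 without OL miR-145 replicate 2. Cd9 was at 846 and 847 CPM against 1129 and 1102 CPM, a log2 fold change of -0.39 (adjusted p of 0.293), while Cntn2, an adhesion protein of the region beside the node, had 0.89 (adjusted p of 0.370) at 1.14 to 2.95 CPM.

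For lipid synthesis the median was -0.12, and Gal3st1, which makes sulfatide, had -0.61 (adjusted p of 0.222) and Smpd3 0.62 (adjusted p of 0.379). Inhibitors had a median of 0.01, with Bmp4 at -0.76 (adjusted p of 0.320) and Hey2 at 0.90 (adjusted p of 0.321). In the list for Mbp RNA transport 8 of 9 estimates were negative, with a median of -0.18, Fyn at -0.46 (adjusted p of 0.293) and the helicase gene Ddx5 at -0.22 (adjusted p of 0.496). Partners had a median of -0.04, with S100b at 1.18 (adjusted p of 0.158) and Sept7 at -0.46 (adjusted p of 0.236). Astrocyte markers summed to 13163 and 8923 CPM in OL miR-145 and to 6423 and 5404 CPM in OL miR-ctl, and all 8 had a positive estimate with a median of 0.87. All 12 microglia markers had a positive estimate as well, with a median of 0.77. The 6 premyelinating OL markers lay lower without overlap, with a median of -0.62 and sums of 3314 and 2877 CPM against 5360 and 4104 CPM, and 0 of all these markers were called. The part of these cell types in the estimates of the myelin genes was not tested.

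Both mimics together were compared with the same control libraries. Mbp and Mag had positive estimates of 0.29 ± 0.48 and 0.23 ± 0.43 on the log2 scale (standard error), and Cnp and Cldn11 negative ones of -0.13 ± 0.25 and -0.06 ± 0.42 (edgeR adjusted p of 0.955 to 0.992). All 4 overlapped, and the interval of Mbp ran from -0.94 to 1.53. Among 15436 genes tested the share called was 0%, although 956 fell below an unadjusted p of 0.05 and DESeq2 called 106. For 36.7% the groups did not overlap. The 21 other myelin membrane proteins had a median of 0.84, with 16 positive and 9 of these without overlap, but none was called. Hapln2, a link protein of the node, was at 4.42 and 9.99 CPM against 0.553 and 2.67 CPM, a log2 fold change of 2.19 (adjusted p of 0.801), and Cntn2 had 0.84 (adjusted p of 0.801).

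In the remaining lists of that comparison 0 genes passed. Activators had a median of -0.10, with Tcf7l2 at -0.46 and Zfp488 at -0.70, and inhibitors had -0.05, with Bmp4 at -0.67 and Id4 at 0.51. Lipid genes had 0.16, with Fa2h at -0.42 and Gal3st1 at -0.34, while genes of Mbp RNA transport had -0.07, with Fyn at -0.38 and Hnrnpa2b1, which binds the transport signal of Mbp RNA, at -0.17. The partners had -0.08, with S100b at 0.92 and Sept7 at -0.24. Adjusted p ranged from 0.800 to 0.890 for the genes named. Beside them, 8 of 8 astrocyte markers and 9 of 12 microglia markers had positive estimates, with medians of 0.55 and 0.40, and 5 of 6 premyelinating OL markers lay lower without overlap, with a median of -0.47. None of these markers was called, and their part in the estimates was not tested.

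The effect of adding the miR-219 mimic was read from the combined group against OL miR-145. Every one of the 4 genes had a positive estimate, at 0.47 ± 0.43 for Mbp, 0.45 ± 0.37 for Mag, 0.39 ± 0.37 for Cldn11 and 0.23 ± 0.25 for Cnp (log2, standard error), and the edgeR adjusted p was 1.00 for each. Intervals included 0 for all, with that of Mbp from -0.64 to 1.57, and all 4 overlapped. The share called was again 0% among 15501 genes tested, with 228 below an unadjusted p of 0.05 and 9 called by DESeq2. For 24.8% the groups did not overlap. With the replicate number as a block, edgeR called Mbp and Mag higher, under the limit given above for such a block. All 14 activators and all 9 genes of Mbp RNA transport had positive estimates, with medians of 0.19 and 0.08, without a call. Olig2 had 0.22 and Zfp488 0.17 among the former, and Dync1li2 0.11 and Syncrip 0.09 among the latter. In the other lists medians were 0.23 for membrane proteins, with Omg at 0.23 and Gjb1, a connexin of myelin, at 0.77, and 0.19 for lipid genes, with Elovl7 at 0.77 and Gal3st1 at 0.26. They were -0.09 for inhibitors, with Hey2 at -0.41 and Sox6 at 0.15, and 0.01 for partners, with Sept7 at 0.21 and Tjp1, a tight junction scaffold gene, at -0.13, with an adjusted p of 1.00 for each gene named. Estimates were positive for 0 of 8 astrocyte and 0 of 12 microglia markers, with medians of -0.31 and -0.46, and for 6 of 6 premyelinating OL markers, with a median of 0.13. None was called, and their part in the estimates of the myelin genes was not tested. The comparisons within OLs share libraries, so their estimates are not independent.

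Within OLs the library numbered 2 exceeded the one numbered 1 for all 4 genes in each of the 3 OL groups, which held for 21.7% of 15611 genes, and did so by at least 1.2 times, which held for 5.12%. In OPCs the libraries of a group differed by at most 1.11 times for Mbp. In the OL libraries numbered 1 the astrocyte markers summed to 10892, 13163 and 6423 CPM in miR-145+miR-219, miR-145 and miR-ctl, and in those numbered 2 to 6423, 8923 and 5404 CPM. Microglia markers summed to 418, 450 and 437 CPM in libraries numbered 1 and to 732, 1114 and 646 CPM in those numbered 2. Their part in the spread of the myelin genes was not tested.

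Ratios of one gene to another within a library take out what the genes share. The log2 ratio of Mbp to Mag stayed between 3.31 and 3.48 in the 6 OL libraries, a range of 0.17, although Mbp alone varied 2.49-fold and Mag 2.26-fold. In OPCs it was 4.35 and 4.29 with anti-miR-145 and 4.77 and 4.92 with anti-miR-ctl. The ratio of Mbp to Cnp varied more in OLs, between 0.97 and 1.99, and was always the higher in the library numbered 2. It was between -1.47 and -1.35 in OPCs. Transcript length cancels between libraries but not within a ratio, so only differences between libraries are read.

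Mag and Cldn11 kept a similar ratio in the 2 libraries of each OL group, and the ratio differed between treated groups and controls. Their log2 ratio was -0.23 and -0.21 in OL miR-ctl, 0.04 and 0.02 in OL miR-145, and 0.08 in both libraries of OL miR-145+miR-219. Both groups given miR-145 thus lay above the control without overlap. With the inhibitor in OPCs the ratio was -0.48 and -0.53, below the 0.33 and 0.19 of its control. The ratio of Mbp to Cldn11 separated the same groups, so the pattern is not particular to Mag. It was 3.09 and 3.2 in OL miR-ctl, 3.35 and 3.49 in OL miR-145 and 3.47 and 3.54 in OL miR-145+miR-219. In OPCs it was 3.86 and 3.76 with anti-miR-145 and 5.1 and 5.12 with anti-miR-ctl. The ratio of Cnp to Cldn11 overlapped between the OL groups. Over all single genes, groups did not overlap for 36.7% with both mimics against OL miR-ctl and for 67.8% in OPCs, in either direction. No such share was computed for ratios. These ratios were chosen after their values were seen and carry no test.

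**Figure D4:**
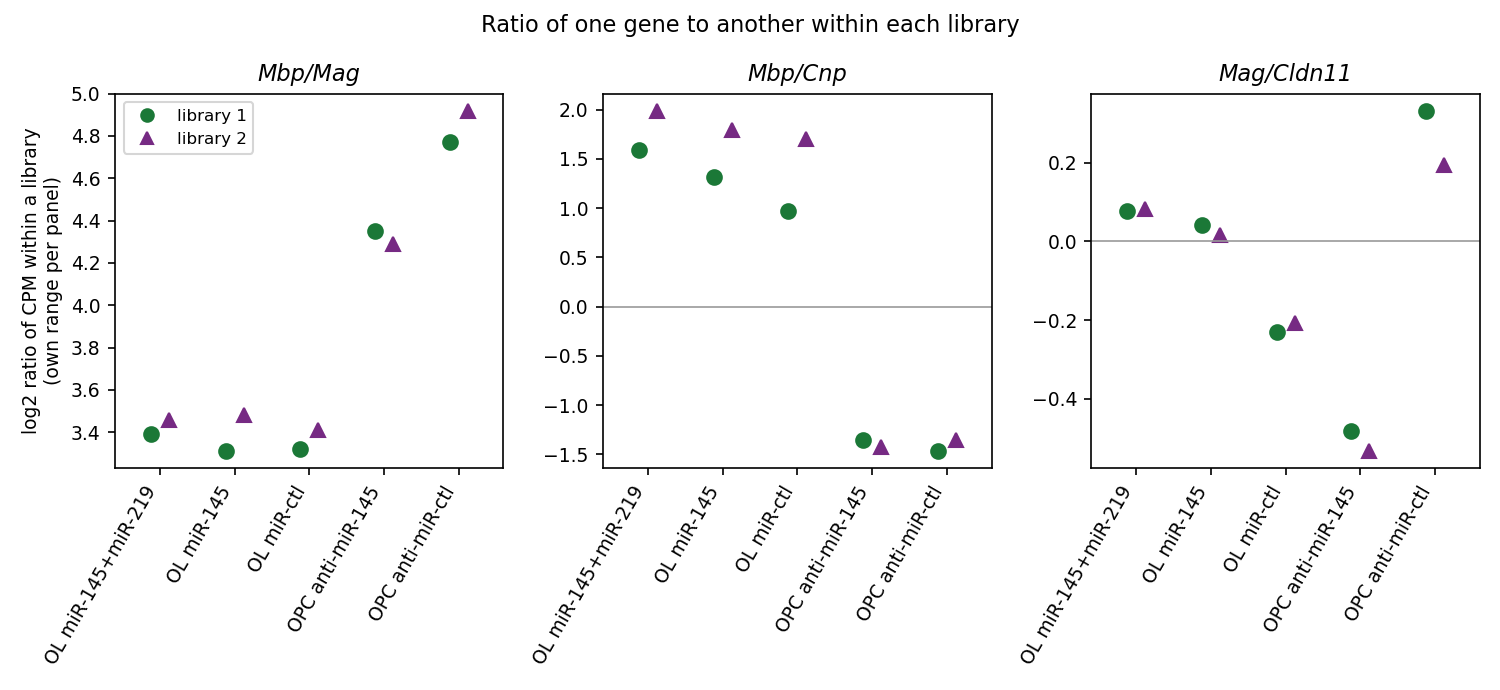
Log2 ratio of CPM of one gene to another within each library, with circles and triangles for the libraries numbered 1 and 2. Mbp to Mag lies between 3.31 and 3.48 in all OL libraries, Mbp to Cnp is above 0 in OLs and below 0 in OPCs, and Mag to Cldn11 is lowest in OPC anti-miR-145.

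Genes whose pattern was most like the mean of the 4 were ranked by Pearson correlation of log2(CPM + 1), which describes these libraries only and carries no p. Over the 6 OL libraries the closest among 2620 genes with a mean of at least 10 CPM and an SD of at least 0.2 was Sema4d, a semaphorin, with r of 0.998 and a range of 81.0 to 194 CPM. Snx15, Aplp1, Dusp8, Enoph1, Arrdc4, Nectin1, Dpy19l1 and Sik1 followed, all above 0.99, and 133 of the 2620 reached 0.95. Over all 10 libraries the leading genes among 6325 were Etnk2, an ethanolamine kinase (r of 0.9992), the glutathione peroxidase Gpx3, Hs3st1, Plxnd1, Camk2n1, Lgi3, Bmf, Prima1 and Cdk18, and 970 reached 0.95. The long lists show that with so few libraries a high r does not single out a gene. By Spearman correlation 46 of the 2620 had the same order of OL libraries as the mean of the 4.

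The promoter windows of the genes are shown because all 4 genes, like Myrf, were higher in control OLs than in control OPCs. The pattern searched for as a Myrf core, CTGGNAC with N for any base, is in capitals. With anti-miR-145 in OPCs Myrf was lower while Mag and Cldn11 were higher, and a part of Myrf in these levels was not tested. Windows run from 250 bases before to 50 after the start site in RefSeq (GRCr8), read along the gene's strand, and matches on the other strand count.
Mag (chr1:95290995-95291294, minus strand): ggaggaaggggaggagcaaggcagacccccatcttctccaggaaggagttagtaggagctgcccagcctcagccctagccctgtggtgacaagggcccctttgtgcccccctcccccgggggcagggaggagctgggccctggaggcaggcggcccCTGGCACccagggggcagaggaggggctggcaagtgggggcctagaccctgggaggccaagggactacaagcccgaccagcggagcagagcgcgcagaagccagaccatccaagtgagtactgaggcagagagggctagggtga
Cnp (chr10:86011254-86011553, plus strand): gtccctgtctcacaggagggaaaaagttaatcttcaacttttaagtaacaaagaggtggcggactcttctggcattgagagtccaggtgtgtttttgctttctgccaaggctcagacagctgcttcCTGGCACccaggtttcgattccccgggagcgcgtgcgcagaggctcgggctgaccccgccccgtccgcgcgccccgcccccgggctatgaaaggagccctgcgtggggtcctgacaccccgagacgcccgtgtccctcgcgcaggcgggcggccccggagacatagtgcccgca
Cldn11 (chr2:114149490-114149789, minus strand): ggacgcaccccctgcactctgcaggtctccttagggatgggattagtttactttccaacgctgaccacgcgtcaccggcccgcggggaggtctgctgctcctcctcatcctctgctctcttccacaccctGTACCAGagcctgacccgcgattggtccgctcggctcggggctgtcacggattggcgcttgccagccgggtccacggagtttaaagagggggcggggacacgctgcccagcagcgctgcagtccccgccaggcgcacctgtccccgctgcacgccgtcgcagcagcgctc

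The Myrf core occurred once in each of these windows, 94 bases before the start site in Mag, 124 before it in Cnp and, on the other strand, 120 before it in Cldn11. Of all 33469 windows 18.2% held it. RefSeq gives 2 windows for Mbp, both at upstream starts of its long gene and not the start of the classic myelin transcripts, whose window was not analysed here. The first holds 1 Myrf core and the second holds 0. A SOX motif, ACAAAG, was present in the windows of Mag and Cnp, not in that of Cldn11, and in 18.8% of all windows. E-boxes, CANNTG, were found 2 times in Mag, 2 times in Cnp and once in Cldn11, and 72.1% of windows held at least 1. CCAAT occurred 2 times in Cldn11 and in neither Mag nor Cnp, against 37.5% of all windows, and TATAAA in none of the 3, against 14.2%. The windows of Mag and Cldn11 had a GC content of 67.7% and 67.0% beside a median of 51.7%, but held 6 and 26 CpG sites. A match describes the letters in a window and does not show binding.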

How the data were processed

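RNA libraries (TruSeq Stranded mRNA, Illumina) of 10 samples in 5 groups of 2 were compared. The authors assigned reads to GENCODE Rnor6.0 transcripts with Salmon 0.12.0, summed them to genes with tximport, and the deposited values are estimated counts without normalization, which were rounded here. Their methods name lentivirus for RNAseq, while the paper's results and the labels name mimics. The authors' deposited table of their own OL miR-145 comparison was used only for gene symbols. It also holds a mean signal, a log2 fold change, a score, and p-values.

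For each comparison the 4 libraries concerned entered an edgeR 4.0.16 fit (TMM, quasi-likelihood test, R 4.3.3), restricted to genes that reached 5 counts in 2 or more of them. Benjamini-Hochberg adjusted p under 0.05, over all genes tested, was called. Standard errors are the log2 fold change over the square root of F. DESeq2 1.42.0, other scalings, filters, fits and left-out libraries were alternatives. The functions were tested on simulated data. The paper counts a primary culture from an individual mouse as 1 replicate and gives no such definition for rat cultures. Labels number the libraries of a group N1 and N2. From each list at most 2 called genes per direction with the smallest p were named, and where none was called the 2 with the smallest p. Members and lists were chosen with earlier results of these data known. A total of 75 of 78 listed genes were found. Some items are not reported here.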

Additional observations from a re-analysis of the deposited data

How the results depend on the processing

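Each of the 4 genes had at least 294 counts in every library, and 2 libraries per group limit precision. The part of depth in the spread was not tested. For the 20 fold changes of the 4 genes, DESeq2's size factors, no filter and a filter at 10 counts changed no direction or call. In OPCs given anti-miR-145, Mag had a log2 fold change of 0.38 with DESeq2, 0.31 with library totals and 0.40 with all 5 groups in the fit, without passing, and Cldn11 had 1.17 with all 5 groups in the fit. The cause was not tested. Mean CPM on library totals moved by over 1 SD for 6 of 20 values.

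Numbers of genes called were 649 with DESeq2 and 32 with all 5 groups in the fit for OL miR-145 against OL miR-ctl, 106 with DESeq2 and 1 without a filter for both mimics against OL miR-ctl, 9 with DESeq2 for both mimics against OL miR-145, and 2553 in place of 4348 with all 5 groups for OPCs.

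Replicate numbers are shared between groups. The paper defines N for primary cultures as cells from an individual mouse and gives no such definition for rat cultures. Neither the paper nor the labels say that a number stands for the same animal in every group. Deviations of same-numbered libraries correlated at 0.396, 0.457 and 0.622 in the OL comparisons, -0.141 in OPCs and 0.0646 between controls. With a replicate block, Cnp and Cldn11 had -0.36 (adjusted p of 0.0277) and -0.42 (0.00889) in OL miR-145 against OL miR-ctl, where 2272 genes were called, and Mbp and Mag had 0.45 (0.0129) and 0.42 (0.033) when miR-219 was added, where 184 were called. Both mimics against OL miR-ctl gave 132 calls. In OPCs the block put Mag at 0.38 (0.0615). It changed no other call of the 4 genes. Crossing the numbers in OPCs, an alternative chosen after seeing the data, called 5536 genes.

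Leaving out each library in turn gave ranges as follows. For OL miR-145 against OL miR-ctl, Mbp ran from -0.64 to 0.44, Mag from -0.64 to 0.35, Cnp from -0.53 to -0.19 and Cldn11 from -0.87 to 0.090. For both mimics against OL miR-ctl they ran from -0.27 to 0.92, -0.28 to 0.81, -0.44 to 0.12 and -0.57 to 0.50. For both mimics against OL miR-145 they ran from -0.079 to 0.92, -0.054 to 0.83, -0.074 to 0.48 and -0.11 to 0.77. In OPCs Mag ran from 0.36 to 0.41 and Cldn11 from 1.06 to 1.2, and calls over all genes from 2348 to 7133. Between controls calls ran from 4780 to 10306. In all, 17 of 80 such fold changes changed sign, all of them within OLs.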
